A study of Arabidopsis thaliana with 8 samples.

Results

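The class III peroxidase genes of Arabidopsis thaliana were followed in embryos of 2 crosses at 2 ages. The members were the genes whose array reporter had a description starting with the word peroxidase, which gave 65 of the 24645 genes on the array, each with 1 reporter. Of these, 62 were described simply as peroxidases. APX6 and AT1G33660 were described as resembling ascorbate peroxidases, a separate family, and AT1G33660 is annotated in RefSeq as a transcribed pseudogene. AT3G42570 was described as peroxidase-related. A further 3 reporters, worded as cationic or anionic peroxidases (AT4G25980, AT1G30870 and AT1G14540), fell outside the rule.

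Each of 8 two-colour arrays held RNA of 1 cross in Cy5 and of the other in Cy3. In both crosses the seed parent was Q0990, a GAL4 enhancer trap line active in the inner, provascular cells of the embryo. The pollen parent was wild-type Col-0 or the line bdl, whose name is that of BODENLOS (BDL, also IAA12), a repressor of auxin responses, and all plants are labelled with the ecotype Col-0. Embryos were taken at 3 and at 6 days, counted from pollination in the sample labels and from fertilization in the series text, with 4 biological replicates at each age. The construct of the bdl line and the number of embryos per sample are not given in the sources used here. BDL was higher in Q0990 x bdl on 4 of 4 arrays at each age, by 0.86 ± 0.0946 (SD, n = 4) on the log2 scale at day 3 and by 1.02 ± 0.0916 (SD, n = 4) at day 6.

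Class III peroxidases are secreted plant enzymes that use hydrogen peroxide to oxidise phenolic compounds in the cell wall. They couple lignin monomers into polymer and cross-link wall proteins, which stiffens walls, and they can also produce reactive oxygen that loosens walls or takes part in defence. The family is large, and different members serve lignified vessels and fibres, the Casparian strip of the root endodermis, root hairs, the seed coat and the tapetum.

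Many members were dim in these embryos. Values were deposited for 42 members at day 3 and for 59 at day 6, and 41 had values on both days. PER20, AT2G39040, AT3G42570, AT4G33420 and AT5G19880 had no value on any array. At day 3 the deposited tables had no value for 5241 gene spots, and 18 members had values at day 6 only. A signal was called above background when it was brighter than 95 percent of the 1743 blank spots in the same channel and array, a limit of 27.3 to 87.5 intensity units at day 3 and of 68.4 to 308 at day 6. The median gene spot stood at 338 to 526 at day 3 and at 226 to 453 at day 6. Of the 65 members, 16 never passed this limit, and 8 passed it in all 16 signals: PER42, PER50, APX6, AT1G33660, AT3G28200, AT4G31760, AT5G40150 and AT5G47000. A gene was tested when at least 4 of its 16 signals passed. This left 42 members, of which 38 could be tested on both days and 4 (AT1G44970, AT1G77100, AT2G34060 and AT5G15180) at day 6 only. The 18 measured members that did not pass included PER36, which acts in mucilage release from the seed coat, PER40, known from the tapetum, PER33 of the oxidative burst, and PER72, known from lignification.

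The arrays did not group by their dye labels. Per the labels Q0990 x bdl was in Cy5 on replicates 1 and 2 and in Cy3 on replicates 3 and 4. Across all genes the deviations of arrays from the mean ratio of their day correlated at -0.518 and -0.567 between the arrays of the same labelled orientation at day 3, and at -0.593 and -0.465 at day 6. Between arrays of opposite labelled orientation the correlations ran from -0.586 to 0.143 at day 3 and from -0.533 to 0.221 at day 6. Deviations from a shared mean of 4 arrays lean negative by construction, so a negative value by itself says little about the labels. The dye term follows the labels, and the counts obtained with an array term read from the values stand beside the main counts below. All tests of the cross were limma fits of log2 ratios after addition of 50 to each intensity, which understates the change of dim genes. A gene was called at a Benjamini-Hochberg adjusted p under 0.05 over all genes tested.

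At day 3 the bdl cross had more signal than the Col-0 cross from PER64, PRXCB, AT5G14130, PER3 and PER21, and less from PRX52. Of 38 members tested, 16 were called, 10 higher and 6 lower in Q0990 x bdl. That share, 42.1%, stood at the background, since 42.1% of all 19087 genes tested were called at this age, 21.1% higher and 21% lower. At 1.5-fold or more, 7 of the 38 members were called against 6.59% of all genes. The median log2 ratio was 0.088 over the members and 0.0025 over all genes. With the array term read from the values, 19 members were called, and 51.6% of all genes. The strip plot of ratios by array shows PER64 above every other member at this age, whereas the arrays of PER21 and PRX52 overlap those of uneven members such as AT5G47000 and AT4G31760.

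**Figure D1:**
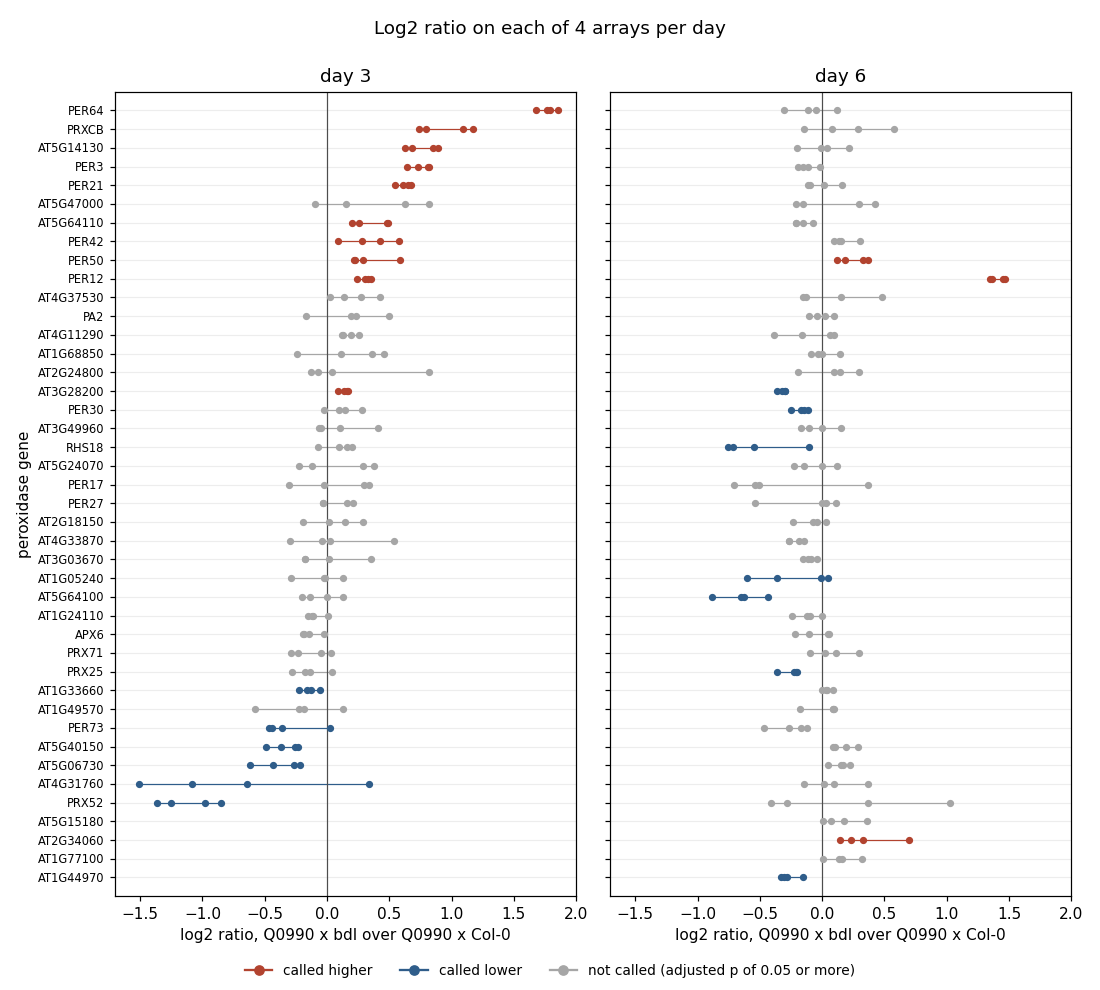
Log2 ratio of the bdl cross to the Col-0 cross on each of the 4 arrays of a day (points) for the 38 peroxidase genes tested at day 3 and the 42 tested at day 6, coloured by call. PER64 at day 3, between 1.68 and 1.86, and PER12 at day 6, between 1.35 and 1.46, lie farthest above 0. The lowest single point is the -1.51 of AT4G31760 on replicate 4 of day 3, whose 4 arrays are spread widely, while PRX52 at day 3 lies between -1.37 and -0.85 on all 4 arrays.

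PER64 polymerises lignin in the Casparian strip. Its deposited intensities at day 3 in replicates 1 to 4 were 955, 1051, 2078 and 2139 in Q0990 x bdl and 264, 272, 576 and 557 in Q0990 x Col-0. Every bdl signal lay above every Col-0 signal, and the arrays gave log2 ratios of 1.68, 1.79, 1.77 and 1.86. The mean was 1.77 ± 0.0737 (SD, n = 4), a 3.42-fold higher level (limma, adjusted p = 2.66e-06). At day 6 the same gene read 20.7 to 89.2 across both crosses and was not well above background on any array.

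PRX52, which takes part in lignification of stem fibres, moved the other way. It read 98.1, 44.5, 167 and 120.5 in Q0990 x bdl and 242, 175, 508 and 260.2 in Q0990 x Col-0 at day 3, so that no bdl signal reached the lowest Col-0 signal. The ratio fell by 1.11 ± 0.237 (SD, n = 4) on the log2 scale, 2.16-fold lower (limma, adjusted p = 0.00353). Without the added offset this call was lost, with an adjusted p of 0.0892. These 2 genes were the only called members at day 3 in the list of peroxidases linked to lignin or the Casparian strip, of which 5 were tested (PER64, PRX52, PER17, PRX71 and PRX25). PRX71, which acts in stem lignification, had a log2 ratio of -0.14 with a 95% interval of -0.31 to 0.041, and PRX25 had -0.14 with an interval of -0.27 to 0.00033.

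PRXCB, also known as PRX34, supplies reactive oxygen in the defence burst. At day 3 it read 179.8, 246, 395 and 311 in the bdl cross and 82.6, 128, 147 and 121 in the Col-0 cross, and the groups did not overlap. It was 1.93-fold higher, at 0.95 ± 0.215 (SD, n = 4) on the log2 scale (limma, adjusted p = 1.38e-04). PER33, the other member of that pair, had no values at day 3 and at day 6 was above background on 1 of 4 arrays in each cross.

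PER3, named RCI3 as a gene induced by cold, read 493, 452, 954 and 701 against 297, 237, 553 and 382 in Q0990 x Col-0. The crosses overlapped in raw intensity, but every array gave a positive ratio, with a mean of 0.75 ± 0.0839 (SD, n = 4) on the log2 scale or 1.68-fold (limma, adjusted p = 3.77e-05). PER21 read 398, 153, 484 and 485 against 256, 77.5, 299 and 293, again overlapping between arrays and higher in the bdl cross within each. Its log2 ratio was 0.62 ± 0.0575 (SD, n = 4), 1.53-fold (limma, adjusted p = 1.14e-04).

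AT5G14130 was bright at day 3, with 3901, 4062, 7746 and 11476 in Q0990 x bdl and 2512, 2160.2, 4865 and 6259 in Q0990 x Col-0. Its ratio was positive on 4 of 4 arrays and averaged 0.76 ± 0.129 (SD, n = 4) on the log2 scale, 1.7-fold (limma, adjusted p = 1.62e-04). The other 5 members called higher were smaller in effect, from 0.14 for AT3G28200 to 0.36 for AT5G64110, with PER12 at 0.31, PER50 at 0.33 and PER42 at 0.34 between them. The other 5 called lower were AT4G31760, AT5G06730, AT5G40150, PER73 and AT1G33660.

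AT4G31760 had the least even values of the called members at day 3. Its log2 ratios were -1.08, -0.65, 0.33 and -1.51 on replicates 1 to 4, so that 3 of 4 arrays were lower, and its mean of -0.73 ± 0.790 (SD, n = 4) was called at a limma adjusted p of 0.0422, which was 0.0778 without the added offset. Without replicate 1, 2 or 4 of day 3 the adjusted p was 0.138, 0.0737 and 0.145. PER73, a root hair gene listed as RHS19, averaged -0.31 ± 0.227 (SD, n = 4) with 3 of 4 arrays lower (limma, adjusted p = 0.0258). That call was lost without replicate 2, 3 or 4 of day 3, with adjusted p-values of 0.106, 0.11 and 0.0872. AT1G33660, at -0.14, lost its call without replicate 2, 3 or 4 of day 3.

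The samples are labelled as isolated embryos, but markers of the endosperm and seed coat were measured too, and all 3 compartments' markers moved with the cross at day 3. Of 14 tested embryo markers 12 were lower in Q0990 x bdl and none was higher (median log2 ratio -0.67). Of 11 endosperm markers 10 were higher (median 0.65), and of 15 seed coat markers 11 were higher (median 0.47), and none of either list was lower. Over all genes 21.1% were higher and 21% lower at day 3. Summed embryo marker intensities ran from 51900 to 77700 in Q0990 x bdl and from 87000 to 116000 in Q0990 x Col-0. Summed endosperm markers ran from 22200 to 41500 against 15100 to 30400, and summed seed coat markers from 79400 to 138000 against 61500 to 94000. Values at day 3 existed for 14 of 15 embryo, 11 of 11 endosperm and 15 of 16 seed coat markers. Each marker with values had a signal above background at that age. The part of these markers in the peroxidase ratios was not tested. In such pooled tissue, fewer cells of a type and less RNA per cell cannot be told apart.

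At day 6 PER12 had the largest change of the members, and it was higher in Q0990 x bdl. Of 42 members tested, 10 were called, 3 higher and 7 lower in Q0990 x bdl. This was 23.8% of the members, below the 35.6% of all 19467 genes tested, among which 16.2% were higher and 19.4% lower. At 1.5-fold or more 2 members were called, PER12 and AT5G64100, against 5.28% of all genes, and the median log2 ratio was -0.021 over the members and -0.0021 over all genes. The count moved when an array was left out: without replicates 1, 2, 3 and 4 of day 6 it was 5, 6, 4 and 6. The share over all genes fell too, to 23.3%, 26.7%, 23.2% and 24.3%. With the array term read from the values 15 members were called, and 46.9% of all genes.

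PER12 read 6474, 1522, 3352 and 2621 in Q0990 x bdl at day 6 and 2288, 555, 1164 and 987 in Q0990 x Col-0. Replicate 1 was the brightest array in both crosses, and the bdl signal was the higher on all 4. The log2 ratios of 1.45, 1.36, 1.46 and 1.35 averaged 1.41 ± 0.0590 (SD, n = 4), 2.65-fold higher (limma, adjusted p = 1.47e-06). PER12 had been called higher at day 3 too, at 0.31 ± 0.0468 (SD, n = 4), from intensities of 72.1 to 213 against 47.6 to 159.

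AT5G64100 was the lower member with the largest change at day 6. It read 194, 111, 90.9 and 167 in Q0990 x bdl and 395, 201, 140.0 and 284 in Q0990 x Col-0, with 3 of 4 bdl signals and 2 of 4 Col-0 signals above background. The log2 ratio was -0.65 ± 0.182 (SD, n = 4), 1.57-fold lower (limma, adjusted p = 4.29e-04). At day 3 its ratio was -0.05 with a 95% interval of -0.22 to 0.12.

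The root hair genes were dim. RHS18, a root hair specific gene, read 6.71, 118, 120.3 and 121 at day 6 in Q0990 x bdl and 10.7, 224, 236 and 199.5 in Q0990 x Col-0. On replicates 1 and 4 both signals were below the limit set by the blank spots, so 2 of 4 signals in each cross were above background. Apart from replicate 1, every bdl signal lay below every Col-0 signal. The log2 ratio was -0.53 ± 0.299 (SD, n = 4), 1.44-fold lower (limma, adjusted p = 0.00559). PER73 was not called at day 6, at -0.26 with a 95% interval of -0.47 to -0.047 (limma, adjusted p = 0.0595). RHS18 was not on the list of root hair genes chosen for this report, which held PER73, AT1G05240 and AT4G26010. AT1G05240 is given below, and AT4G26010 had no signal above background.

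The other called members at day 6 changed by less than 1.5-fold. AT2G34060, measured at day 6 only, was higher at 0.35 ± 0.243 (SD, n = 4), a call lost without replicate 1, 3 or 4 of day 6, and PER50 was higher at 0.25 ± 0.118 (SD, n = 4). AT3G28200, AT1G44970, PRX25, AT1G05240 and PER30 were lower, by log2 ratios from -0.32 to -0.17. AT1G44970 had -0.27 and lost its call without any 1 of the 4 day 6 arrays. PRX25 was lower (limma, adjusted p = 0.0136), but its bdl signals were not well above background. Replaced by a bound, the lowest level of any gene with a reporter above the blank spots, they gave a 1.01-fold difference. The PRX25 call was lost without replicate 2, 3 or 4 of day 6. AT1G05240 had 3 of 4 arrays lower and an adjusted p of 0.0380, and PER30 had an adjusted p of 0.0490, and both lost their calls without any 1 of the day 6 arrays, as PER30 did without the added offset (adjusted p = 0.0625). Of the compartment markers at this age, 6 embryo markers were higher and 2 lower of 14 (median 0.085), 4 endosperm markers were higher of 10 (median 0.13), and 2 seed coat markers were higher and 3 lower of 15 (median 0.011). Over all genes 35.6% were called. Without any 1 of the day 6 arrays 2 endosperm markers were called. Without replicate 2 or 4 of day 6 the embryo list had 5 and 4 calls, and without replicate 1, 3 or 4 the seed coat list had 3.

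**Figure D2:**
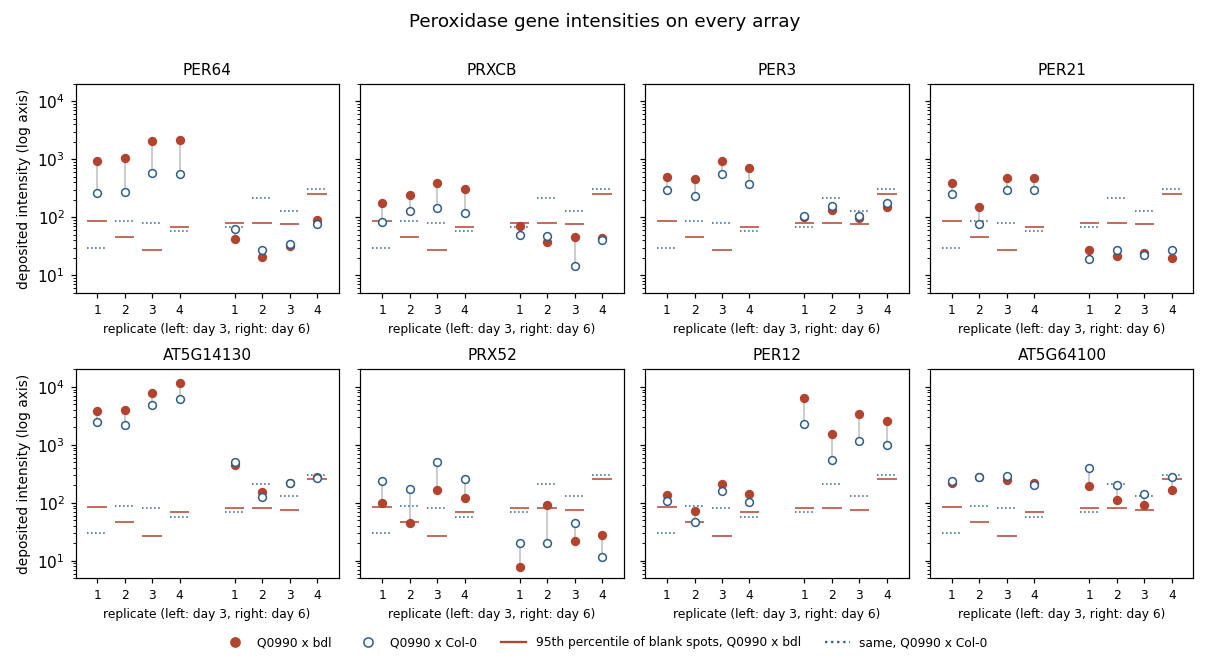
Deposited intensity (log axis) of 8 named peroxidase genes on each array, for Q0990 x bdl and Q0990 x Col-0 at days 3 and 6, with the limit set by the blank spots for each signal. PER64, PRXCB and PER21 lie above the blank spots' limit at day 3, apart from 1 Col-0 signal of PER21, and below it on every array at day 6, while PER12 rises from at most 213 at day 3 to between 555 and 6474 at day 6.

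The effect of the cross differed between days in several members. The difference of the 2 ratios was called for 14 of 38 members (36.8%, against 41.4% of all 18834 genes), 4 with a ratio higher at day 6 and 10 with a ratio lower at day 6. Among all genes 19.5% were higher and 21.8% lower. At 1.5-fold or more, 9 members were called against 13.2% of all genes. Of the 38 members 3 were called on both days (7.89%, against 17.8% of all 18834 genes), 2 in the same direction (5.26%, against 8.96%) and 1 in opposite directions (2.63%, against 8.81%). PER12 and PER50 were higher in Q0990 x bdl both times, whereas AT3G28200 was higher at day 3, at 0.14 ± 0.0365 (SD, n = 4), and lower at day 6, at -0.32 ± 0.0315 (SD, n = 4). The day 6 call of PER50 was lost without replicate 1, 2 or 3 of day 6, with adjusted p-values of 0.137, 0.0784 and 0.132. The day 3 call of AT3G28200 was lost without any 1 of the 4 day 3 arrays, with adjusted p-values of 0.0557 to 0.116, whereas its difference between days had an adjusted p of 6.62e-04.

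PER12 had the most precise increase, since its ratio was 1.10 higher on the log2 scale at day 6 than at day 3 (95% interval 0.95 to 1.25; limma, adjusted p = 2.07e-05). PRX52 had a ratio 1.29 higher (0.61 to 1.97; adjusted p = 0.00947), and the no-offset fit gave an adjusted p of 0.140. AT5G40150 went from -0.34 ± 0.119 (SD, n = 4) at day 3 to 0.17 ± 0.0935 (SD, n = 4) at day 6, a difference of 0.51 (adjusted p = 0.00229), and AT5G06730 from -0.38 to 0.15. Of these, PRX52 was above background in 1 bdl and no Col-0 signal at day 6.

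The ratios of PER64, PER3, AT5G14130, PRXCB, PER21, RHS18 and AT5G64100 were lower at day 6 than at day 3 by at least 1.5-fold. PER64 changed by -1.86 (95% interval -2.05 to -1.67; limma, adjusted p = 6.82e-06), PER3 by -0.87 (-1.04 to -0.70; adjusted p = 1.00e-04) and AT5G14130 by -0.75 (-0.999 to -0.50; adjusted p = 0.00106). For PER64, PRXCB and PER21 neither cross was well above background at day 6, so these differences set a measured day 3 ratio against a pair of signals near the blank spots. At day 6 PER3 was above background in 3 bdl signals but in only 1 Col-0 signal, and AT5G14130 in 4 and 2. Their day 6 log2 ratios were -0.12 with a 95% interval of -0.24 to 0.0020 and 0.011 with an interval of -0.16 to 0.19.

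Between the day 3 and day 6 arrays the family changed in both directions in each cross. No array held both ages, so age and the set of arrays cannot be told apart. Separate-channel limma fits, which compare signals across arrays, called 16 of 38 members in Q0990 x Col-0 (42.1%, against 26.6% of all 18834 genes), 8 higher and 8 lower at day 6. They called 14 of 38 in Q0990 x bdl (36.8%, against 31.8%), 6 higher and 8 lower. All of these called members changed by 1.5-fold or more, as did 26.6% and 31.7% of all genes. Both fits use the same 8 arrays, and for each gene their difference is the change of ratio given above. In Q0990 x Col-0 the count fell to 10 without replicate 3 of day 3 and to 10 without replicate 4 of day 3. The share over all genes fell too, to 18.1% and 19.2%.

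AT5G14130 fell most. In Q0990 x Col-0 it went from 2160.2 to 6259 at day 3 to 511, 125, 224 and 269 at day 6, and in Q0990 x bdl from 3901 to 11476 down to 443, 155, 223 and 279. No day 6 signal reached the lowest day 3 signal of its cross. The fitted change was 11.3-fold lower in Q0990 x Col-0 (limma, adjusted p = 5.18e-07) and 19.1-fold lower in Q0990 x bdl (adjusted p = 3.67e-08).

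AT4G37530 fell from 327 to 775 at day 3 in Q0990 x Col-0 to below background (limma, adjusted p = 1.16e-04). With its day 6 level replaced by the bound described under processing, the fall was 4.17-fold. In Q0990 x bdl AT4G37530 fell by 2.69 on the log2 scale (adjusted p = 5.24e-05). Against the same bound, PER64 was 3.33-fold lower at day 6 in Q0990 x Col-0 and 14.6-fold lower in Q0990 x bdl. PER21 was 2.37-fold and 4.22-fold lower against the bound. PER3, for which no bound was needed, fell by 1.10 and by 1.96 on the log2 scale. Its day 6 signal was above background on only 1 array in Q0990 x Col-0 and on 3 in Q0990 x bdl. PRXCB was 1.41-fold lower in Q0990 x Col-0 and 2.82-fold lower in Q0990 x bdl against the bound, with limma adjusted p-values of 0.0381 and 7.66e-04. The Col-0 call was lost without replicate 2, 3 or 4 of day 3 and without replicate 3 of day 6. PRX52 was 2.83-fold lower against the bound in Q0990 x Col-0 (limma, adjusted p = 0.0262), a call lost without any 1 of the day 3 arrays or replicate 4 of day 6. In Q0990 x bdl the change of PRX52, -0.86, had a 95% interval of -2.28 to 0.56.

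Among the members called between days, PER12 and PER17 had the largest rises in each cross. PER12 was 8.01-fold higher at day 6 in Q0990 x Col-0 (limma, adjusted p = 6.02e-08) and 17.2-fold higher in Q0990 x bdl (adjusted p = 1.10e-09). PER17, which acts in lignified tissues, read 176, 18.2, 11.8 and 15.8 at day 3 in Q0990 x Col-0 and 3122, 383, 113 and 1606 at day 6. In Q0990 x bdl it read 228, 10.4, 32.2 and 15.1 at day 3 and 2228, 515, 62.5 and 976 at day 6. Only 1 Col-0 and 2 bdl signals of PER17 were above background at day 3. The arrays of 1 day differed widely, replicate 1 being the brightest at both ages in both crosses, and replicate 3 of day 6 lay below replicate 1 of day 3. The fitted rise was 8.24-fold in Q0990 x Col-0 (adjusted p = 0.00932) and 6.16-fold in Q0990 x bdl (adjusted p = 0.0183). AT4G31760, which was not called, had a change of 2.64 in Q0990 x bdl with a 95% interval of -0.064 to 5.34. The bdl call of PER17 was lost without replicate 3 or 4 of day 3 and without replicate 1 or 4 of day 6, with adjusted p-values of 0.0519, 0.0746, 0.0540 and 0.0635.

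The remaining members that rose in both crosses were APX6, AT5G40150, AT2G24800 and AT3G03670. APX6, described as resembling ascorbate peroxidases, read 1485 to 3494 at day 3 over both crosses and 3846 to 11026 at day 6, with no overlap. APX6 rose by 1.53 and 1.61 on the log2 scale in Q0990 x Col-0 and Q0990 x bdl. AT5G40150 rose by 1.20 and 1.7 and AT2G24800 by 1.68 and 1.60, and AT3G03670 by 1.04 and 0.93. AT2G24800 was above background in only 1 Col-0 and 2 bdl signals at day 3, and in 2 and 3 at day 6. AT3G03670 was above it in 3 signals of each cross at day 3, and in 2 Col-0 and 3 bdl signals at day 6. The calls of AT2G24800 and AT3G03670 were lost in both crosses without replicate 3 or without replicate 4 of day 3, among other arrays, with adjusted p-values of 0.0515 to 0.0823 over these 2 arrays. AT5G47000 and AT4G33870 were called in Q0990 x Col-0, at 1.76 and 1.39, and had 1.48 (95% interval 0.21 to 2.74) and 1.11 (0.12 to 2.11) in Q0990 x bdl. Both Col-0 calls were lost without each of replicates 2, 3 and 4 of day 3 and of day 6.

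**Figure D3:**
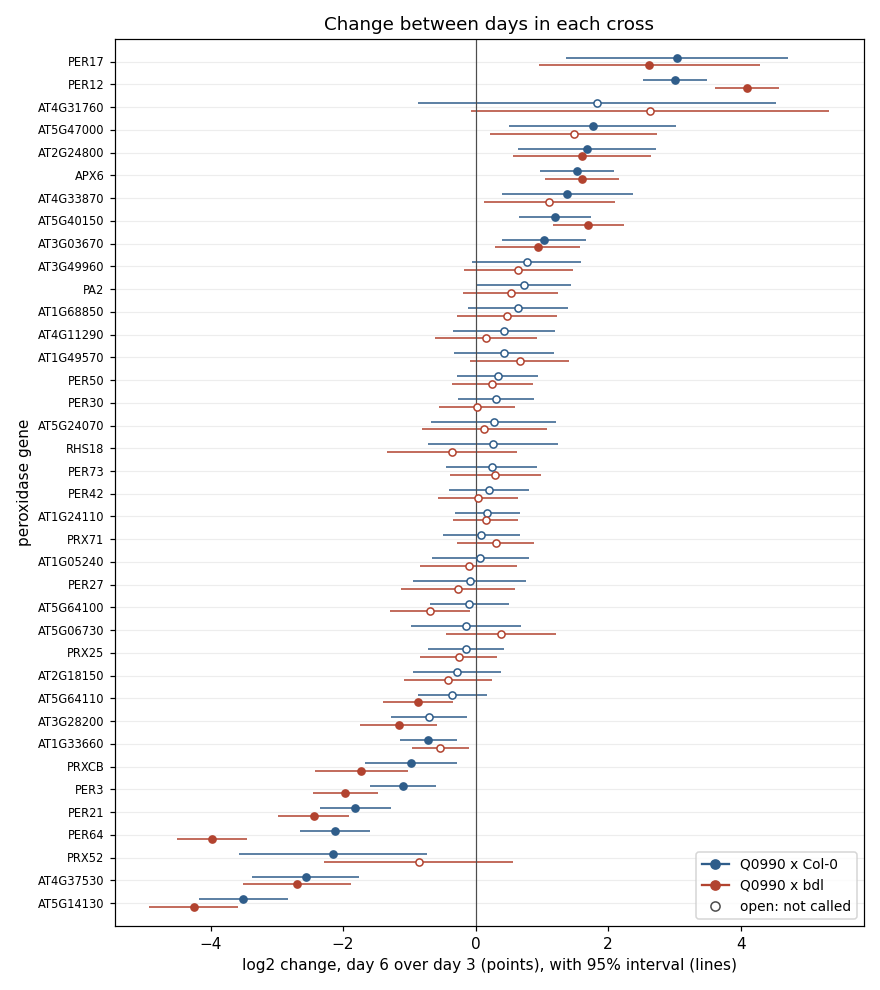
Log2 change from day 3 to day 6 with its 95% interval for the 38 members tested, in Q0990 x Col-0 and in Q0990 x bdl. The changes run from -3.50 for AT5G14130 to 3.04 for PER17 in Q0990 x Col-0 and from -4.25 for AT5G14130 to 4.10 for PER12 in Q0990 x bdl.

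Markers of all 3 compartments were also called between the ages, as were 26.6% of all genes in Q0990 x Col-0 and 31.8% in Q0990 x bdl. In Q0990 x Col-0 5 of 10 endosperm markers and 7 of 15 seed coat markers were lower at day 6, and in Q0990 x bdl 7 of 10 and 7 of 15, with none higher in either list. Of 14 embryo markers 8 were lower and 2 higher in Q0990 x Col-0 (median change -0.90), and 3 were lower and 2 higher in Q0990 x bdl (median -0.18). The median changes of the endosperm and seed coat lists were -1.14 and -0.58 in Q0990 x Col-0 and -1.99 and -1.09 in Q0990 x bdl. Summed endosperm markers at day 6 ran from 4170 to 12800 in Q0990 x bdl and from 3620 to 10700 in Q0990 x Col-0, summed seed coat markers from 12300 to 41300 and from 11600 to 37800, and summed embryo markers from 40400 to 102000 and from 36200 to 86100. FIS2 and AGL36 of the endosperm list, TT16 of the seed coat list and WOX2 of the embryo list were above background on no day 6 array. Their part in the fall of PER64, PER21, PRXCB, PER3 and AT5G14130 was not tested.

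The following members are neighbours in the genome and are given side by side. AT5G64100, AT5G64110 and PRX71 lie next to each other. At day 3 AT5G64110 was called higher at 0.36 ± 0.150 (SD, n = 4), while its neighbours had -0.05 and -0.14. At day 6 AT5G64100 was lower at -0.65, AT5G64110 had -0.16 with a 95% interval of -0.30 to -0.017, and PRX71 had 0.083 with an interval of -0.093 to 0.26. PER50 and AT4G37530 are also neighbours: AT4G37530 was lower at day 6 than at day 3 in each cross, and PER50 changed by 0.33 (95% interval -0.27 to 0.94) in Q0990 x Col-0 and by 0.25 (-0.35 to 0.86) in Q0990 x bdl. PA2, known as PRX53, had 0.19 (-0.033 to 0.41) at day 3 beside the -0.38 of its neighbour AT5G06730. Cross-hybridisation between close copies was not tested, as no probe sequences were used.

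The enzymes that make the monomers for lignin, a substrate of several class III peroxidases, were mostly higher in Q0990 x bdl at day 3. Of 17 tested, 13 were called higher and 2 lower (median log2 ratio 0.40), beside 21.1% higher and 21% lower of all genes. Seed coat and endosperm markers were also mostly higher at this age, and embryo markers mostly lower. The part of these markers in the ratios of the lignin monomer genes was not tested. PAL1, which starts the phenylpropanoid pathway, was higher at 0.77 ± 0.107 (SD, n = 4; limma, adjusted p = 4.1e-05), and CAD5, which makes the alcohol monomers, at 0.78 ± 0.797 with 3 of 4 arrays higher (adjusted p = 0.0176). 4CL1, the ligase between them, was higher at 0.67 ± 0.732, also with 3 of 4 arrays. Without replicate 1 of day 3 the list had 8 higher and 1 lower, and the calls of CAD5 and 4CL1 were lost, with adjusted p-values of 0.0629 and 0.126. Without the added offset both calls were lost too, CAD5 at an adjusted p of 0.0597 and 4CL1, at a log2 ratio of 0.30, at 0.647. At day 6 only 2 of the 17 were higher and 4 lower (median -0.075), 35.3% called against 35.6% of all genes. ATCAD4 was at -1.03, PAL2 at 0.54 and 4CL2 at -0.49. Laccases, the other enzymes that polymerise lignin, gave no call among 6 tested at day 3 in limma, nor any at an unadjusted p under 0.05, and 1 lower of 8 at day 6, LAC6 at -0.28. The LAC6 call was lost without replicate 1, 2 or 3 of day 6, and without replicate 4 of day 3 there was 1 laccase called higher at day 3.

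Genes that make or remove the enzyme's other substrate, hydrogen peroxide, were called in both directions. Over all genes tested 42.1% were called at day 3 and 35.6% at day 6. Of 3 NADPH oxidases tested, none was called at day 3, nor at an unadjusted p under 0.05 in limma, and at day 6 RBOH F (-0.36) and AT4G11230 (-0.20) were lower, the call of AT4G11230 being lost without replicate 1, 3 or 4 of day 6 or any 1 of the day 3 arrays. Superoxide dismutases, which turn superoxide into hydrogen peroxide, were lower for 3 of 6 at day 3 (CSD2 -0.76, MSD1 -0.43 and FSD1 -0.32). At day 6 4 of the 6 were higher, CSD2 at 0.41 and FSD3 at 0.39 among them, and CSD3 was lower at -0.42. Of 15 genes listed under catalases, ascorbate peroxidases and glutathione peroxidases, 6 were higher and 1 lower at day 3 (46.7% called). At day 6 7 were higher and 2 lower (60%), and 3 higher and 2 lower without replicate 3 of day 6. CAT3, a catalase, was higher on both days, at 0.64 ± 0.0546 (SD, n = 4) and 0.99 ± 0.183 (SD, n = 4). TL29 was also higher on both days, at 0.81 and 0.50, while APX3 was lower at day 3 at -0.68 and GPX8 at day 6 at -0.47. This list holds APX6, which was called on neither day.

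Of 5 tested genes that build the Casparian strip, the wall band in which PER64 acts in the root, GSO1, a receptor kinase, and ESB1, a dirigent-like protein, were lower at day 3 (-0.72 and -0.21). These are 40% of the list, against 42.1% called over all genes. At day 6 the transcription factor MYB36 was lower (-0.33), and none of the list was higher on either day. The call of ESB1 was lost without replicate 1 or 3 of day 3, and that of MYB36 without replicate 3 of day 6. Of the 2 listed regulators of peroxidase genes, AT5G47390 was tested and was higher at day 3, at 0.17, a call lost without replicate 2, 3 or 4 of day 3.

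**Figure D4:**
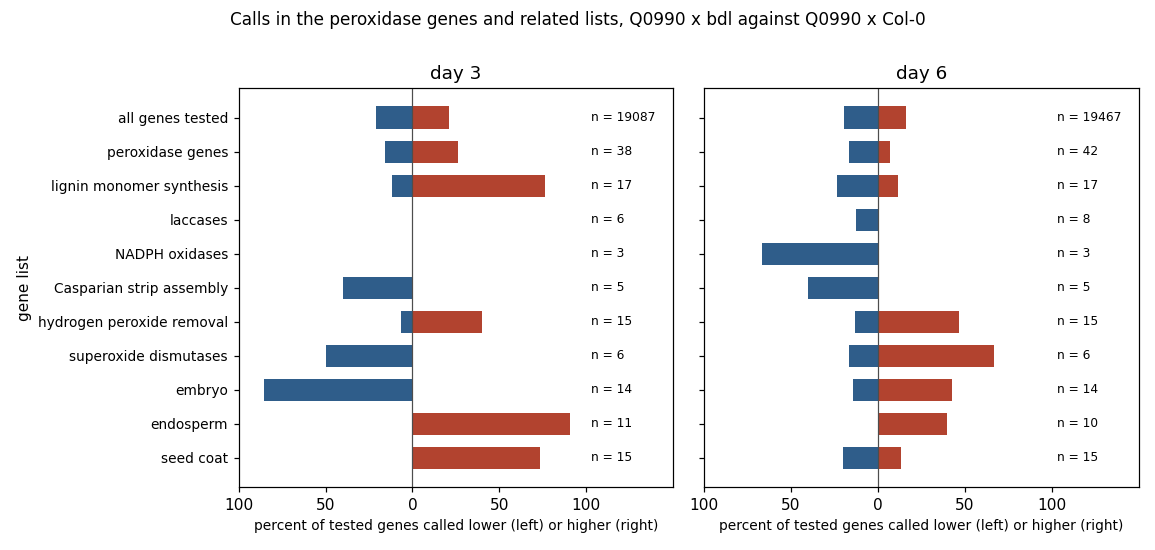
Percent of tested genes called lower (left) and higher (right) in Q0990 x bdl at day 3 and day 6, for all genes, the peroxidase genes and 9 gene lists. At day 3 the peroxidase genes (42.1% called) match all genes (42.1%), and 13 of 17 lignin monomer genes and 10 of 11 endosperm markers are higher, while 12 of 14 embryo markers are lower.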

How the data were processed

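Each of 8 two-colour arrays was deposited as a table of 2 intensity columns per spot, 1 per channel, on a linear scale per the file headers. The scanner, background subtraction and any normalization by the authors are not given in the sources used here. RNA was amplified before labelling, per the labels' protocols, and the 4 replicates of a day are biological per the series text. After adding 50 to each deposited intensity, log2 ratios were loess-normalized within arrays (span 0.3, 4 iterations, control spots at weight 0) in limma 3.58.1 under R 4.3.3 with statmod 1.5.0. Genes needed at least 4 of 16 signals brighter than 95 percent of the blank spots and at least 3 arrays per day. All 8 arrays entered 1 fit with terms for day 3, day 6 and dye. Changes between days came from limma's separate-channel model after Aquantile normalization, with an intraspot correlation of 0.946. P-values were adjusted by Benjamini-Hochberg over all genes tested, two-sided, and the procedure was checked on simulated data. Of 100 genes changed 1.5-fold it recovered 86 at day 3, 87 at day 6 and 56 for the difference between days. Of 100 genes changed 2-fold between days in a cross it recovered 22, and of 100 changed 4-fold 90. The simulated noise of the ratios was independent between arrays, unlike the array deviations given above. The number of arrays limits the precision. Where no signal of a group was above background, levels below a bound were replaced by that bound. The bound was the lowest normalized level on the array of any gene with a reporter above the blank spots. Reporters of a gene were averaged after normalization, so the bound can lie below the blank spots' limit. Folds against the bound are therefore not minimum changes at that limit.

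Members, roles and gene lists were chosen with earlier results of these data known. Named were called members with a change of 1.5-fold or more and the same sign on 4 of 4 arrays, up to 6 called members in each direction between days, tested members of the role lists, and up to 3 called genes of each other list. Other members and marker genes were named after their values were seen. A deposited table of processed ratios, whose numbered rows carry no reporter or gene name, was not used. All 65 members matched RefSeq locus tags. No sequences were used, so protein identity between members was not computed. Arrays with the same replicate number on the 2 days did not deviate together (correlations of -0.213, -0.183, -0.146 and -0.259). The array term read from the values has opposite signs on the 2 arrays of each number. These correlations therefore cannot tell whether the numbers pair samples. Alternatives covered the offset, filter, normalization, dye term, replicate block, each day fitted alone and each array left out. The result for 1 gene of the other lists is not reported here.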

Additional observations from a re-analysis of the deposited data

Results flagged for a closer look

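In 14 members the log2 ratio of the bdl cross to the Col-0 cross differed between day 3 and day 6 by a test of the difference itself (limma, Benjamini-Hochberg adjusted over all genes). On the log2 scale it was lower at day 6 for PER64 (-1.86), PER3 (-0.87), AT5G14130 (-0.75), PRXCB (-0.75), PER21 (-0.63), RHS18 (-0.63), AT5G64100 (-0.60), AT5G64110 (-0.52), AT3G28200 (-0.46) and PER30 (-0.30). It was higher at day 6 for PRX52 (1.29), PER12 (1.10), AT5G06730 (0.53) and AT5G40150 (0.51). For PER64, PRXCB and PER21 none of the 8 day 6 signals was above the blank spots, and for PRX52 1 was. In these 4 members the day 6 ratio is one of signals near background, so that a change of ratio was not measured there. For PER3, 3 bdl signals and only 1 Col-0 signal were above the blank spots at day 6.

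In 2 members 1 of the 4 day 6 arrays lay far from the other 3. PRX25 had a log2 ratio of -0.36 on replicate 2 against -0.23, -0.20 and -0.21 on the others. AT1G49570, which was called on neither day, had -0.17 on replicate 3 against 0.098, 0.088 and 0.086. Dixon's range test was applied to 80 groups of 4, and chance alone sets apart about 1 in 20.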

How the results depend on the processing

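Among the tested members and the named genes of the other lists no called value changed sign under any alternative, and over all of these genes and alternatives 4441 values kept their side of the threshold, 207 lost a call and 66 gained one. Where only genes above the blank spots in all 16 signals were kept, 8 members were tested, and fewer genes tested is part of that setting. Of these 8, 6 were called at day 3, 3 at day 6, 3 for the difference between days, 3 between days in Q0990 x Col-0 and 3 in Q0990 x bdl. In the same order 51.8%, 51.2%, 52.8%, 24.2% and 31% of all genes were called. Leaving out 1 array gave 13 to 16 calls at day 3, 4 to 11 at day 6, 13 to 16 for the difference, 10 to 17 in Q0990 x Col-0 and 11 to 15 in Q0990 x bdl. Over all genes the shares then ran, in the same order, from 34% to 41.3%, 23.2% to 36.3%, 33.1% to 39.8%, 18.1% to 26.7% and 24% to 31.2%. The array term read from the values, chosen after seeing the data, gave 19, 15, 17, 14 and 16 calls in the same order (all genes 51.6%, 46.9%, 51.5%, 25.9% and 31.5%). With the replicate number as a block, the counts were 13, 7, 15, 18 and 17 (all genes 35.1%, 27.1%, 34.2%, 37.4% and 41.6%). Whether that number pairs these samples is not known. Each day fitted alone gave 11 and 12 (all genes 27.5% and 36.4%). Without an added offset the members that lost a call were PRX52 and AT4G31760 at day 3, PER30 at day 6, and PRX52 and PRXCB (adjusted p = 0.146) for the difference, while PRX25 gained one at day 3 (adjusted p = 0.0495). Of the named genes of other lists CAD5, 4CL1, ALE1, AHA10 and MUM2 at day 3 and LAC6 (adjusted p = 0.115) and WOX5 at day 6 lost theirs, and the cause was not tested. Signals near the blank spots limit what day 6 can show, since 12 members were above them in every day 6 signal, against 20 at day 3.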
